A study of Mus musculus with 2 samples.

Results

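The 52 genes described here work in G2 phase and in mitosis. They were taken by gene symbol from a list of mitosis and G2/M genes, and each symbol matched 1 of the 32285 rows of the feature list, the same row in both libraries. By role, 6 belong to the cyclin B-CDK1 module that drives entry into mitosis, and 8 to the kinetochore and its checkpoint. The chromosomal passenger complex has 3, the spindle and its microtubules 16, and cytokinesis 5. Ubiquitin ligases and their activators number 4, chromosome structure genes 7, and genes of the nuclear envelope and nuclear transport 3.

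Cyclin B and CDK1 accumulate through G2, trigger chromosome condensation, breakdown of the nuclear envelope and spindle assembly, and are switched off when the anaphase-promoting complex, activated by Cdc20, marks cyclin B for destruction. Most of the genes are transcribed in a late wave of the cell cycle that follows the S phase wave, under B-MYB with the MuvB complex and FOXM1, and are kept silent in resting cells by the related DREAM complex. In the early postnatal dentate gyrus, radial glia act as neural stem cells and Eomes-positive intermediate progenitors divide to produce granule neurons, while oligodendrocyte progenitors and microglia also divide in place.

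The study profiled dissociated dentate gyrus of mice at postnatal day 5 with droplet single-cell RNA sequencing (10x 3′ chemistry), in which each captured RNA molecule carries a unique molecular identifier (UMI). The 2 genotypes compared were a conditional knockout of Setdb1 (Setdb1_cKO), which encodes a histone H3 methyltransferase of lysine 9, and wild type (control). Each genotype had 1 library, so no difference has a replicate check and no p-value is given. The sources used here do not give the Cre driver, the deleted exons or how many animals made up a library.

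The Setdb1_cKO library held 87845965 UMIs and gave 9375 kept cells with a median of 6981 UMIs, and the control library held 82393428 UMIs and gave 10783 kept cells with a median of 5924 UMIs. The libraries shared 39 barcodes among kept cells. Setdb1 was at 18.7 CPM (counts scaled to a total of 1000000) in Setdb1_cKO and 52.8 CPM in control radial glia, with a ratio of 0.354, and the ratio was 0.470 in intermediate progenitors, 0.954 in oligodendrocyte progenitors and 0.731 in microglia. The Setdb1_cKO library had 94294 UMIs of Xist and 0 of Ddx3y, and the control library had 16 and 4155, so the libraries were of opposite sex and genotype, sex and library preparation cannot be told apart. The total is that of all cells of a class, without division by gene length, since the 3′ chemistry counts a molecule once. Intervals are exact 95% Poisson intervals for ratios and exact 95% binomial (Clopper-Pearson) intervals for shares. They cover counting error only and are too narrow for summed UMIs, because molecules of 1 cell are not independent.

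Cells were sorted into classes by gates on marker genes. These hold none of the 52 genes and none of the other mitotic or S phase genes listed below, so the 52 genes did not set the classes. Whether a marker, such as Gadd45g of the intermediate progenitor gate, varies with the cell cycle was not tested. A class name stands for cells that resemble the type by these markers. The gates gave 1517 and 1990 radial glia in Setdb1_cKO and control, 570 and 1089 intermediate progenitors, 188 and 336 oligodendrocyte progenitors, and 219 and 174 microglia, with 1134 and 1318 cells in no class. Within 0.02 score units of the gate lay 6.39% and 5.48% of radial glia and 11.2% and 8.17% of intermediate progenitors. Astrocyte markers (10 genes) summed to 794 CPM in Setdb1_cKO radial glia and 580 CPM in control radial glia, with none at 0. In intermediate progenitors their own markers (8 genes) summed to 2353 CPM in Setdb1_cKO and 3114 CPM in control. Granule lineage markers (12 genes) summed to 3451 and 3829 CPM there, so this class also carried neuronal marker RNA. The part of these markers in the results was not tested. When cells were instead clustered without cell cycle genes, 59.2% of the gated Setdb1_cKO radial glia lay in cluster 6 (1025 Setdb1_cKO and 35 control cells in all) and 49.1% of the gated control radial glia in cluster 7 (14 Setdb1_cKO and 1045 control cells in all). Cluster 9, with cells of both libraries, held 17.9% of the Setdb1_cKO and 19.9% of the control radial glia.

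The promoters of 6 of the genes are shown because the genes that share this late wave of transcription were lower together in Setdb1_cKO radial glia and lay on both sides of control in intermediate progenitors. Sequences are from RefSeq on GRCm38.p6 and run from 250 bases before the annotated start to 50 after it, and 46 of the 52 genes had an entry. Capitals mark TTTGAA, the core of the cell cycle genes homology region that MuvB complexes bind, and CCAAT, the box bound by NF-Y. Both were searched on both strands, and overlapping matches were each counted.
Ccnb1: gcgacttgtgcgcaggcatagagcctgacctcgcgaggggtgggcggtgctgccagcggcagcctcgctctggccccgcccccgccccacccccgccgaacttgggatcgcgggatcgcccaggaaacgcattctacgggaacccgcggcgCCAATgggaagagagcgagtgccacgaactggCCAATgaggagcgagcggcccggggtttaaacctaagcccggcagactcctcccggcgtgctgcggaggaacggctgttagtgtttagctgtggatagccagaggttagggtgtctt
Cdc20: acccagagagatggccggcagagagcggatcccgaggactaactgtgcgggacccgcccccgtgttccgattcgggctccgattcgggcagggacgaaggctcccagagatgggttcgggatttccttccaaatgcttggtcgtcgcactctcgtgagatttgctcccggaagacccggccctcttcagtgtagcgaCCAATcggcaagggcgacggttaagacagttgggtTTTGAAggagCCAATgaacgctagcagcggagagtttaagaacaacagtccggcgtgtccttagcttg
Top2a: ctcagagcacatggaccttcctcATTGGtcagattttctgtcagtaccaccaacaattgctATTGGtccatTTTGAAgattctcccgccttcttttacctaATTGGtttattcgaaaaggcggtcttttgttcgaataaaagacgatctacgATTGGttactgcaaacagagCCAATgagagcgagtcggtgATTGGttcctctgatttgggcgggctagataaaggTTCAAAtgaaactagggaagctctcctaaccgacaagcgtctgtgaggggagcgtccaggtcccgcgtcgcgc
Hmgb2: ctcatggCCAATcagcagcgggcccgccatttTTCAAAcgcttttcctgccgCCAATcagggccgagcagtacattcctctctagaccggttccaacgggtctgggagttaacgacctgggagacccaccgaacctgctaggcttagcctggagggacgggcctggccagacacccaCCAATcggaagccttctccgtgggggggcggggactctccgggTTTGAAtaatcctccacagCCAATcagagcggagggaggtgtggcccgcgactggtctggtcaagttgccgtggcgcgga
Nusap1: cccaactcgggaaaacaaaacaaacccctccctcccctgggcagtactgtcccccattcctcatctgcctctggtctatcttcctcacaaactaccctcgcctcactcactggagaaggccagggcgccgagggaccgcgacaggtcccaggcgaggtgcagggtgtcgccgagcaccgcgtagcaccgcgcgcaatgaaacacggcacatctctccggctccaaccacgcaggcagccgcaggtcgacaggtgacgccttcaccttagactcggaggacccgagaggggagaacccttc
Ckap5: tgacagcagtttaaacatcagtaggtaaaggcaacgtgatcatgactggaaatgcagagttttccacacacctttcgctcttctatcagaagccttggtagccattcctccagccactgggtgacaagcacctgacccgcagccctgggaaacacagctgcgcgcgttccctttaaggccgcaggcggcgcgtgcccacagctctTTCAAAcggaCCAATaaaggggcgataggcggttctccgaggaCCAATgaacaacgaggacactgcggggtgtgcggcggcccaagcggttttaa
The windows are chr13:100786437-100786736, minus strand for Ccnb1; chr4:118437294-118437593, minus strand for Cdc20; chr11:99024140-99024439, minus strand for Top2a; chr8:57511593-57511892, plus strand for Hmgb2; chr2:119618048-119618347, plus strand for Nusap1; and chr2:91526512-91526811, plus strand for Ckap5. In Cdc20 a TTTGAA began 18 bases before the start, in Top2a 23 bases before it, in Hmgb2 30 bases before it and in Ckap5 45 bases before it. The Ccnb1 window held 2 CCAAT boxes and no TTTGAA, and the Nusap1 window held neither.

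TTTGAA was present in 32 of the 46 promoters (69.6%), compared with 18.1% of the 27025 mouse promoters of the same length. CCAAT was present in 36 (78.3%), compared with 37.9% of all promoters, and both motifs in 27 (58.7%), compared with 7.12%. Between 100 bases before the start and 50 after it, TTTGAA was found in 27 of the 46 (58.7%) and in 8.08% of all promoters. In 50 other mitotic genes, a list that excludes the 52, TTTGAA was in 23 of 39 promoters (59.0%), whereas in a list of 42 S phase genes it was in 5 of 30 (16.7%). CCAAT was in 25 of 39 promoters of the other mitotic genes (64.1%) and in 21 of 30 of the S phase genes (70%). It thus did not set the mitotic lists apart from the S phase list. A match is a run of letters and does not show that a factor binds there.

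Across cell classes the genes shared a pattern, with the highest levels in intermediate progenitors. Of the 52 genes, 49 were highest there in Setdb1_cKO and 47 in control. The exceptions in both libraries were Ckap5, a microtubule polymerase highest in radial glia, Tubb4b, a beta-tubulin highest in Cajal-Retzius neurons, and Lbr, a receptor of the inner nuclear membrane highest in endothelial cells. In control, Ckap2 and Aspm were also highest in radial glia. The summed level of all 52 was 11080 CPM in Setdb1_cKO and 10389 CPM in control intermediate progenitors, 5636 and 6979 CPM in radial glia, 4930 and 5662 CPM in oligodendrocyte progenitors, and 2604 and 3897 CPM in microglia. In neurons the sums were 1286 and 1347 CPM in Cajal-Retzius cells and 883 and 954 CPM in granule lineage neurons.

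**Figure D1:**
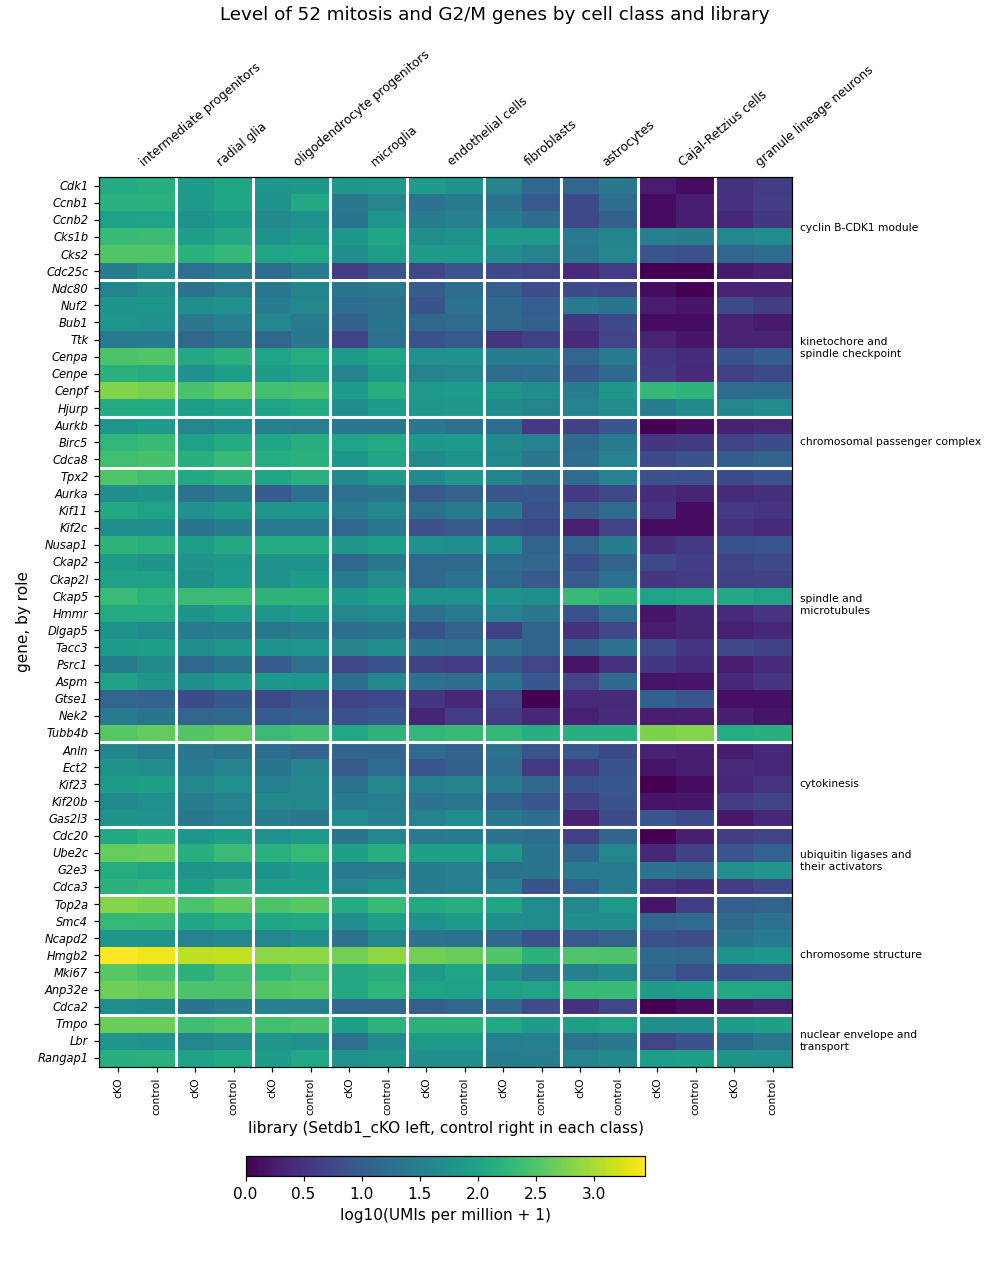
Level of each of the 52 genes (rows, grouped by role) in 9 cell classes, with Setdb1_cKO left and control right in each class; colour is log10(CPM + 1). The intermediate progenitor columns are the brightest for most genes, and Cenpf, Ckap5, Tubb4b and Anp32e stay bright in Cajal-Retzius cells.

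The genes differed in how far they were confined to dividing classes. In Cajal-Retzius cells and granule lineage neurons, 39 of the 52 stood below 10% of their level in intermediate progenitors (both libraries pooled), and these 39 are called mitosis-restricted. The other 13 were broader: Cks1b, Cenpf, Hjurp, Ckap5, Gtse1, Tubb4b, Gas2l3, G2e3, Ncapd2, Anp32e, Tmpo, Lbr and Rangap1. The nearest genes to the 10% limit were Smc4 at 8.19% inside it and Gas2l3 at 11.01% outside it. Cenpf, a large kinetochore and microtubule-binding protein, was at 197 CPM in Setdb1_cKO and 175 CPM in control Cajal-Retzius cells, where Top2a was at 0.565 and 3.41 CPM. The motif TTTGAA was in 23 of 33 mitosis-restricted promoters (69.7%) and 9 of 13 broad ones (69.2%), and in the shorter window near the start in 21 (63.6%) and 6 (46.2%).

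In radial glia, where the summed level of the 52 genes gave a Setdb1_cKO to control ratio of 0.808 (interval 0.800 to 0.816), nearly every gene was lower. Of the 52 ratios 49 were below 1, and the exceptions were Ckap5 at 1.01, Anp32e, a histone H2A.Z chaperone, at 1.003, and Anln, the contractile ring protein anillin, at 1.09. The median log2 ratio was -0.43, beside -0.06 over the 13165 genes with at least 30 UMIs in radial glia, of which 60.3% were below 1. The shift was modest and uneven, with ratios from 0.634 for Ndc80 to 1.09 for Anln and a median ratio of 0.741. Past 1.5-fold, 0 of the 52 were higher (6.46% of all measured genes) and 4 were lower (5.83% of all measured genes), so the count past that fold was near the background. With a stricter cell filter the summed ratio was 0.947 and 0 genes were 1.5-fold lower. With a stricter gate 20 were, and with clusters in place of gates 31 were, at summed ratios of 0.747 and 0.746. The share of all measured genes past the fold is not given for these alternatives, so their counts have no background. With radial glia and astrocytes as 1 class the ratio was 0.888.

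In intermediate progenitors the same genes were on both sides of 1. The summed level gave a ratio of 1.07 (interval 1.06 to 1.08), but 0.958 with a stricter gate and 1.005 with clusters in place of gates, so its direction depended on which cells were counted. With each cell weighted equally, so that deeper cells do not count for more, it was 1.01 in intermediate progenitors and 0.816 in radial glia. Of the 52 ratios 24 were below 1, beside 55.2% of the 11474 measured genes, and the median log2 ratio was 0.03 beside -0.04. Past 1.5-fold, 0 were higher (4.64% of all measured genes) and 2 were lower (7.82% of all measured genes). For 49 of the 52 genes the ratio was higher in intermediate progenitors than in radial glia, Cdc25c, Nuf2 and Psrc1 being the exceptions. The share of all measured genes with this order is not given here. In Setdb1_cKO the level in intermediate progenitors was a median of 2.02 times that in radial glia, and in control 1.504 times.

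**Figure D2:**
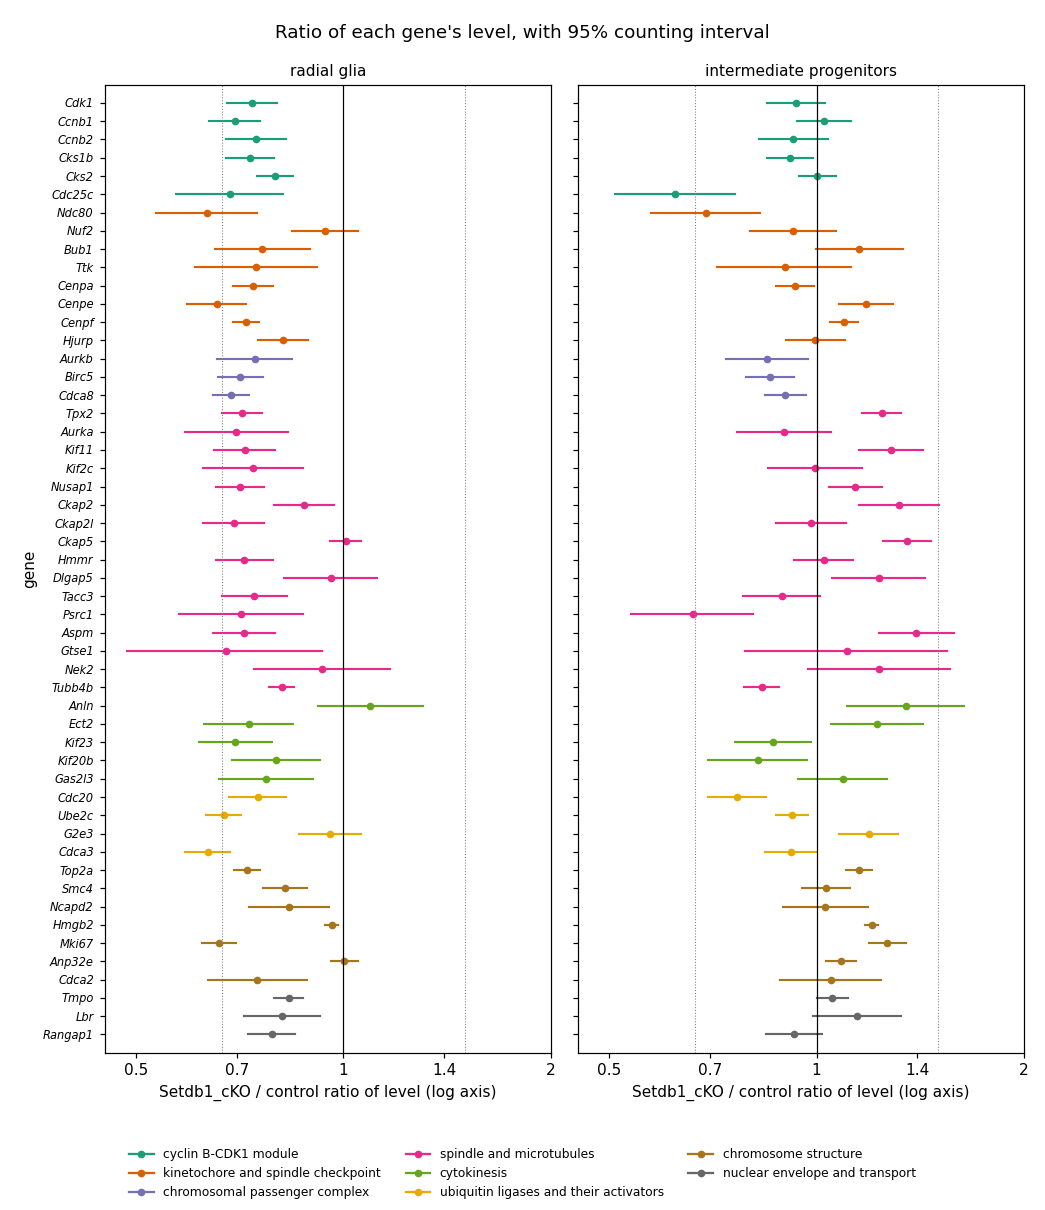
Setdb1_cKO to control ratio of each of the 52 genes in radial glia and in intermediate progenitors (log axis), with exact 95% counting intervals, coloured by role; dotted lines mark 1.5-fold. In radial glia 49 points lie left of 1, and in intermediate progenitors 24 do.

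Sorted by a difference of at least 1.1-fold, a limit set after the values were seen, 13 genes were lower in Setdb1_cKO in both classes, among them Cdc25c, Ndc80, Cdc20 and all 3 genes of the chromosomal passenger complex. Another 12 were lower in radial glia and higher in intermediate progenitors: Bub1, Cenpe, Tpx2, Kif11, Nusap1, Ckap2, Aspm, Gtse1, Ect2, Top2a, Mki67 and Lbr. A further 6 (Ckap5, Dlgap5, Nek2, Anln, G2e3 and Hmgb2) were higher in intermediate progenitors and within 1.1-fold in radial glia. No gene was higher in radial glia by this limit. The same sorting of all measured genes is not given here, so these counts have no background. Of all measured genes 60.3% were below 1 in radial glia and 55.2% in intermediate progenitors.

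Among the cyclin B-CDK1 genes, which start mitosis, Cks2, a small subunit of the CDK1 complex on chromosome 13 (51645232 to 51650660, GRCm38), had the highest count. Cks2 was at 157 CPM in Setdb1_cKO radial glia and 198 CPM in control radial glia (0.795, interval 0.748 to 0.844), and at 326 and 326 CPM in intermediate progenitors. Its paralogue Cks1b was at 85.9 and 117 CPM in radial glia (0.733, 0.676 to 0.794) and at 209 and 228 CPM in intermediate progenitors (0.915, 0.847 to 0.987). Cdk1 itself was at 78.0 and 106 CPM in radial glia and 131 and 140 CPM in intermediate progenitors, and Ccnb1, which encodes cyclin B1, at 73.4 and 106 CPM and at 158 and 154 CPM. Thus each was lower in radial glia, and only Cks1b and Cdk1 of these were below 1 in intermediate progenitors. Cdc25c, the phosphatase that activates CDK1, was lower in both classes, at 17.2 and 25.1 CPM in radial glia (0.684, 0.571 to 0.816) and 27.7 and 44.4 CPM in intermediate progenitors (0.624, 0.509 to 0.760). The 6 genes together were at 467 and 626 CPM in radial glia (ratio 0.746), and at 943 and 992 CPM in intermediate progenitors (ratio 0.951).

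Kinetochore genes build the site where chromosomes attach to the spindle, and the checkpoint delays anaphase until all are attached. Cenpf (chromosome 1, 189640606 to 189688086) was at 281 CPM in Setdb1_cKO and 389 CPM in control radial glia (0.722, interval 0.691 to 0.754), and at 614 and 560 CPM in intermediate progenitors (1.096, 1.05 to 1.15). Cenpa, the histone H3 variant of centromeres, was at 119 and 161 CPM in radial glia (0.739, 0.691 to 0.791) and 299 and 322 CPM in intermediate progenitors (0.931, 0.873 to 0.992). The pair thus shared a direction in radial glia and parted in intermediate progenitors. Ndc80, which holds the microtubule at the kinetochore, had the lowest ratio of all 52 in radial glia, with 18.4 and 29.1 CPM (0.634, 0.534 to 0.750), and was at 34.3 and 49.7 CPM in intermediate progenitors (0.691, 0.575 to 0.828). Cenpe, a motor that carries chromosomes to the spindle equator, was at 54.9 and 83.8 CPM in radial glia (0.655, 0.594 to 0.722) and 164 and 139 CPM in intermediate progenitors (1.18, 1.08 to 1.29), the reverse order. Over the 8 genes the ratios spanned 0.634 to 0.940 in radial glia, and 0.691 to 1.18 in intermediate progenitors.

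The chromosomal passenger complex corrects faulty attachments and later guides cytokinesis. Cdca8, which encodes its targeting subunit borealin (chromosome 4, 124918465 to 124939311), was at 149 CPM in Setdb1_cKO and 216 CPM in control radial glia (0.688, interval 0.648 to 0.730), and at 250 and 278 CPM in intermediate progenitors (0.901, 0.840 to 0.965). Birc5, which encodes survivin, was at 93.3 and 132 CPM in radial glia (0.709, 0.657 to 0.764) and 187 and 218 CPM in intermediate progenitors (0.856, 0.790 to 0.927). Aurkb, the kinase of the complex, gave 0.743 and 0.847. This was the role with the lowest summed ratio in both classes, radial glia giving 0.701 and intermediate progenitors 0.877.

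Spindle genes build and focus the microtubule array, and in intermediate progenitors their ratios had the widest range of the 8 roles, 0.661 to 1.395. Tubb4b (chromosome 2, 25222160 to 25224702) was at 328 CPM in Setdb1_cKO and 403 CPM in control radial glia (0.814, interval 0.780 to 0.848), and at 340 and 408 CPM in intermediate progenitors (0.832, 0.785 to 0.882). Ckap5 was at 225 and 223 CPM in radial glia (1.01, 0.955 to 1.06) and 224 and 166 CPM in intermediate progenitors (1.35, 1.25 to 1.46). Both are broad genes, at 579 and 634 CPM and at 98.4 and 113 CPM in Cajal-Retzius cells. Aspm, a spindle pole protein known for its part in progenitor divisions and brain size, had the highest ratio in intermediate progenitors, with 92.3 and 66.2 CPM (1.395, 1.23 to 1.58), and was at 50.7 and 70.6 CPM in radial glia (0.718, 0.647 to 0.796). Psrc1, a microtubule-binding protein, was lower in both classes, with 12.95 and 18.2 CPM in radial glia (0.710, 0.576 to 0.873) and 27.1 and 41.0 CPM in intermediate progenitors (0.661, 0.537 to 0.809). Tpx2, the activator of Aurora A, Kif11, the plus-end motor that separates the poles, and Nusap1, a microtubule bundler, gave 0.713, 0.719 and 0.708 in radial glia but 1.24, 1.28 and 1.14 in intermediate progenitors.

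The cytokinesis genes divided the same way. Kif23 (chromosome 9, 61915905 to 61946774), a motor of the central spindle, was at 36.7 CPM in Setdb1_cKO and 52.6 CPM in control radial glia (0.697, interval 0.616 to 0.786), and at 76.4 and 88.3 CPM in intermediate progenitors (0.865, 0.762 to 0.980). Kif20b was at 26.8 and 33.6 CPM in radial glia (0.799, 0.690 to 0.925) and 43.8 and 53.3 CPM in intermediate progenitors (0.822, 0.696 to 0.969). Anln and Ect2, the exchange factor that activates RhoA at the division plane, gave 1.35 and 1.22 in intermediate progenitors, the other side of 1 from both motors.

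The ubiquitin ligases and their activators had a summed ratio of 0.708 in radial glia and 0.927 in intermediate progenitors. Ube2c, the ubiquitin-conjugating enzyme that works with the anaphase-promoting complex (chromosome 2, 164769898 to 164778822), was at 150 CPM in Setdb1_cKO and 224 CPM in control radial glia (0.670, interval 0.631 to 0.711), and at 420 and 456 CPM in intermediate progenitors (0.920, 0.872 to 0.971). Cdca3, an adaptor that promotes mitotic entry, was at 89.2 and 140 CPM in radial glia (0.635, 0.588 to 0.685) and 164 and 178 CPM in intermediate progenitors (0.918, 0.841 to 0.9998). Cdc20, whose promoter window holds TTTGAA near the start, gave 0.751 and 0.767. G2e3, a broadly expressed ubiquitin ligase, differed from these with 0.956 and 1.19.

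Chromosome structure genes had the highest summed ratio in intermediate progenitors, 1.17, and in radial glia, 0.887, and Hmgb2 made up most of both sums. Hmgb2 (chromosome 8, 57511907 to 57515999), a DNA-bending protein of proliferating cells and the most abundant of the 52, was at 1295 CPM in Setdb1_cKO and 1346 CPM in control radial glia (0.962, interval 0.941 to 0.983), and at 2778 and 2311 CPM in intermediate progenitors (1.202, 1.18 to 1.23). Top2a, the topoisomerase that untangles sister chromatids, was at 290 and 400 CPM in radial glia (0.725, 0.694 to 0.757) and 665 and 578 CPM in intermediate progenitors (1.15, 1.101 to 1.203). Mki67, which coats mitotic chromosomes and is the usual marker of dividing cells, was at 162 and 245 CPM in radial glia (0.660, 0.623 to 0.699) and 353 and 279 CPM in intermediate progenitors (1.27, 1.19 to 1.35). Top2a and Mki67 therefore gave the pattern of the class sums in a stronger form. Without Hmgb2 the sum of the other 51 genes gave 0.771 in radial glia, against 1.03 in the progenitors. In astrocytes of Setdb1_cKO, Hmgb2 was at 316 CPM and in control astrocytes at 306 CPM, while Top2a was at 38.5 and 68.7 CPM.

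The nuclear envelope and transport genes were broad and close together. Tmpo, which encodes the lamina protein LAP2 (chromosome 10, 91147571 to 91181315), was at 245 CPM in Setdb1_cKO and 294 CPM in control radial glia (0.833, interval 0.794 to 0.874), and at 472 and 448 CPM in intermediate progenitors (1.05, 1.0003 to 1.11). Rangap1, which keeps the Ran gradient, was at 91.1 and 116 CPM in radial glia (0.787, 0.728 to 0.852) and 143 and 154 CPM in intermediate progenitors (0.927, 0.845 to 1.02). Lbr gave 0.815 and 1.15.

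Lists of other cell cycle genes set these values in context. The 50 other mitotic genes were at 2308 CPM in Setdb1_cKO and 2964 CPM in control radial glia (ratio 0.779), with 47 of 50 below 1, and the 42 S phase genes gave 0.809, with 39 of 42 below 1. Prc1, the microtubule bundler of the central spindle, and Pcna, the sliding clamp of replication, gave 0.725 and 0.778. The lower level in radial glia was thus shared by S phase and mitotic genes. In intermediate progenitors the 50 gave 0.999 and the S phase genes 0.960. Per S phase UMI there were 1.26 UMIs of the 38 mitosis-restricted genes other than Hmgb2 in Setdb1_cKO and 1.402 in control radial glia, but 1.55 and 1.46 in intermediate progenitors. With Hmgb2 included, radial glia gave 1.90 in Setdb1_cKO and 1.94 in control, and intermediate progenitors 2.35 and 2.10. The S phase genes also summed to 672 CPM in Setdb1_cKO and 669 CPM in control Cajal-Retzius cells. Those cells do not divide, so not every such UMI marks S phase.

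**Figure D3:**
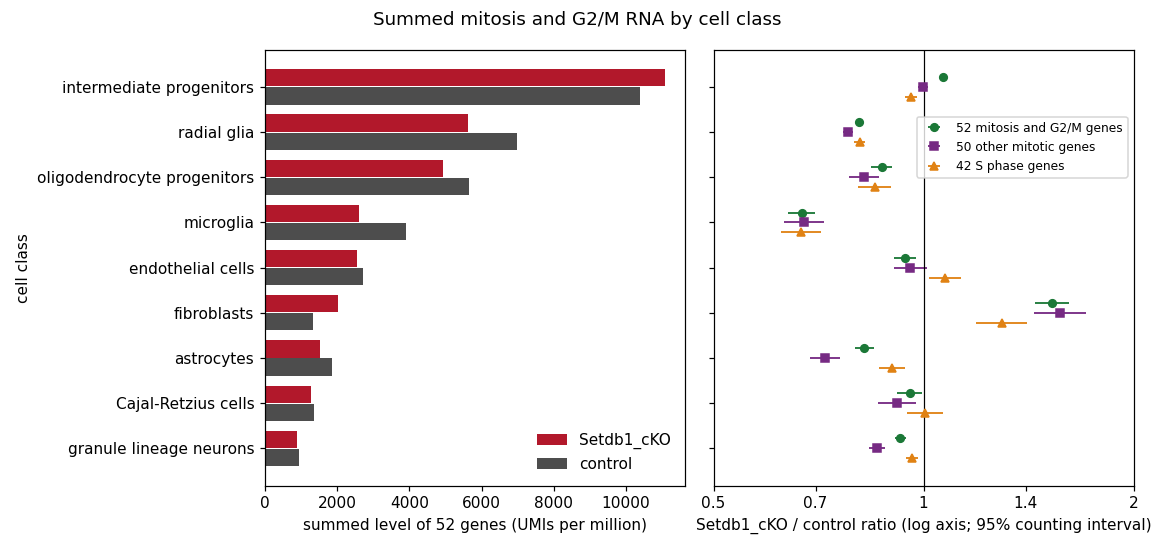
Left, summed level of the 52 genes in 9 cell classes, Setdb1_cKO above control; right, Setdb1_cKO to control ratio of the 52 genes, 50 other mitotic genes and 42 S phase genes (log axis, exact 95% counting intervals). The ratios of all 3 lists lie below 1 in radial glia, oligodendrocyte progenitors and microglia and above 1 in fibroblasts, where the ratio of the 52 genes was 0.871 with each cell weighted equally.

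In oligodendrocyte progenitors the 52 genes summed to a ratio of 0.871 (interval 0.841 to 0.902). Of 50 genes with at least 30 UMIs, 39 were below 1, with 2 past 1.5-fold higher (4.91% of all measured genes) and 8 lower (6.19% of all measured genes). Ccnb1 was at 60.0 CPM in Setdb1_cKO and 120 CPM in control (0.501, 0.369 to 0.672), while Hmgb2 was at 729 and 726 CPM (1.004). The genes past the fold in the other direction were Bub1, a checkpoint kinase, at 1.57 (0.976 to 2.52) and Anln at 1.53 (0.733 to 3.18). The ratio was 0.750 with the stricter cell filter.

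In microglia the ratio was the lowest of the 4 dividing classes, 0.668 (interval 0.640 to 0.698), and was 0.797 with called doublets kept. Of 46 measured genes 44 were below 1 and 25 were past 1.5-fold lower (10.3% of all measured genes), with 0 higher (6.38%). Hmgb2 was at 507 CPM in Setdb1_cKO and 738 CPM in control (0.687, 0.621 to 0.760), and Ccnb2, cyclin B2, at 20.2 and 62.2 CPM (0.325, 0.205 to 0.506). Cdk1 was nearly level, at 66.4 and 68.9 CPM (0.965, 0.707 to 1.32). The S phase genes gave 0.666, close to the mitotic genes. Erythroid markers (6 genes) were at 11.1 CPM in Setdb1_cKO and 2154 CPM in control microglia, and their part in the difference was not tested.

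In astrocytes and fibroblasts the summed ratios were on opposite sides of 1, but that of fibroblasts turned when each cell was weighted equally. In astrocytes 31 of 48 measured genes were past 1.5-fold lower (6.28% of all measured genes) and 1, Anln, was higher (5.7%), at a summed ratio of 0.822. That ratio was 0.722 over the 39 mitosis-restricted genes and 0.931 over the 13 broad ones. The share of astrocytes counted for the 39 genes, given below, was higher in Setdb1_cKO, but lower without Hmgb2. Ube2c was at 11.9 CPM in Setdb1_cKO and 37.0 CPM in control astrocytes (0.321, interval 0.228 to 0.442). In fibroblasts 21 of 42 measured genes were past 1.5-fold higher (7.78% of all measured genes) and 0 lower (5.41%), and the sum was at 2034 and 1331 CPM (1.53, 1.44 to 1.62). Hmgb2 was at 327 and 163 CPM there (2.001, 1.71 to 2.34), and Nusap1 at 51.5 and 11.8 CPM (4.37, 2.57 to 7.84). These fibroblast sums rest on few cells, since 15 of 191 Setdb1_cKO and 13 of 192 control fibroblasts had mitotic RNA (at least 2 UMIs of the 38 mitosis-restricted genes other than Hmgb2, after each cell was thinned to 2000 UMIs). With each cell weighted equally the 52 genes were at a mean of 1294 CPM per cell in Setdb1_cKO and 1486 CPM in control fibroblasts, a ratio of 0.871, on the other side of 1 from the sum. After thinning, fibroblasts held a mean of 0.979 UMIs of the 38 genes in Setdb1_cKO and 1.15 in control in the draw used. Over all possible draws the means were 1.01 and 1.07 (ratio 0.950), and for all 52 genes 2.63 and 2.64 (ratio 0.997). The turn was thus slight among cells with at least 2000 UMIs. The share of fibroblasts with mitotic RNA was 7.85% in Setdb1_cKO and 6.77% in control. In endothelial cells 0 of 49 were past 1.5-fold higher (4.87%) and 4 lower (6.07%).

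A lower sum can come from fewer cells with the RNA or from less RNA in each, so cells were counted. Each cell was thinned to 2000 UMIs, and a cell was counted if at least 2 of these came from the mitosis-restricted genes. In radial glia 528 of 1489 Setdb1_cKO cells (35.5%, interval 33.0 to 37.9) and 789 of 1936 control cells (40.8%, 38.6 to 43.0) passed, a ratio of shares of 0.870 (0.798 to 0.949). Left out as too shallow were 28 and 54 cells. With the stricter cell filter the ratio was 0.996. Without thinning the order turned round, at 71.4% in Setdb1_cKO and 65.3% in control, where the median depths were 7307 and 6016 UMIs. The share in Cajal-Retzius cells, which do not divide, was 2.37% in Setdb1_cKO and 2.50% in control, at median depths of 8699 and 7622 UMIs. The mitosis-restricted genes were chosen to be low in Cajal-Retzius cells and granule lineage neurons, so low shares there follow from that choice.

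Without Hmgb2, the most abundant of the genes, the difference in radial glia was larger. The shares of cells with at least 2 UMIs of the other 38 genes were 23.3% in Setdb1_cKO (347 cells) and 31.4% in control radial glia (608 cells), a ratio of 0.742 (interval 0.663 to 0.831). They were 45.7% and 47.4% in intermediate progenitors (0.964, 0.864 to 1.08), where the interval spans equality. In oligodendrocyte progenitors they were 24.2% and 34.8% (0.693, 0.513 to 0.937), and in microglia 16.7% and 31.2% (0.535, 0.359 to 0.796). The lower sums of these classes thus went with lower shares of cells. Cajal-Retzius cells gave 1.84% (7 of 380) and 2% (8 of 400) by the same criterion. Left out as too shallow were 5 and 4 intermediate progenitors, 10 and 26 oligodendrocyte progenitors, and 33 and 20 microglia. On raw UMIs 39.6% of Setdb1_cKO and 46.1% of control radial glia passed, with 61.2% and 64.2% in intermediate progenitors, 29.8% and 43.2% in oligodendrocyte progenitors, and 34.7% and 50% in microglia, beside 14.8% and 14.4% in Cajal-Retzius cells. In endothelial cells the shares were 39.2% and 28.7%, although the sum over all UMIs was lower in Setdb1_cKO, with a ratio of 0.941, and the ratio was 1.27 with each cell weighted equally. Astrocyte shares depended on the genes counted. With Hmgb2 they were 19.9% in Setdb1_cKO and 15.02% in control (1.33, 1.04 to 1.69), opposite to the summed ratio of 0.822. Without Hmgb2 they were 7.49% and 8.99% (0.833, 0.563 to 1.23). On raw UMIs without Hmgb2 they were 34.2% and 26.8%, at median depths of 8617.5 and 7050 UMIs. Taken over all possible draws of the thinning, the shares in radial glia were 23.8% and 31.3%.

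**Figure D4:**
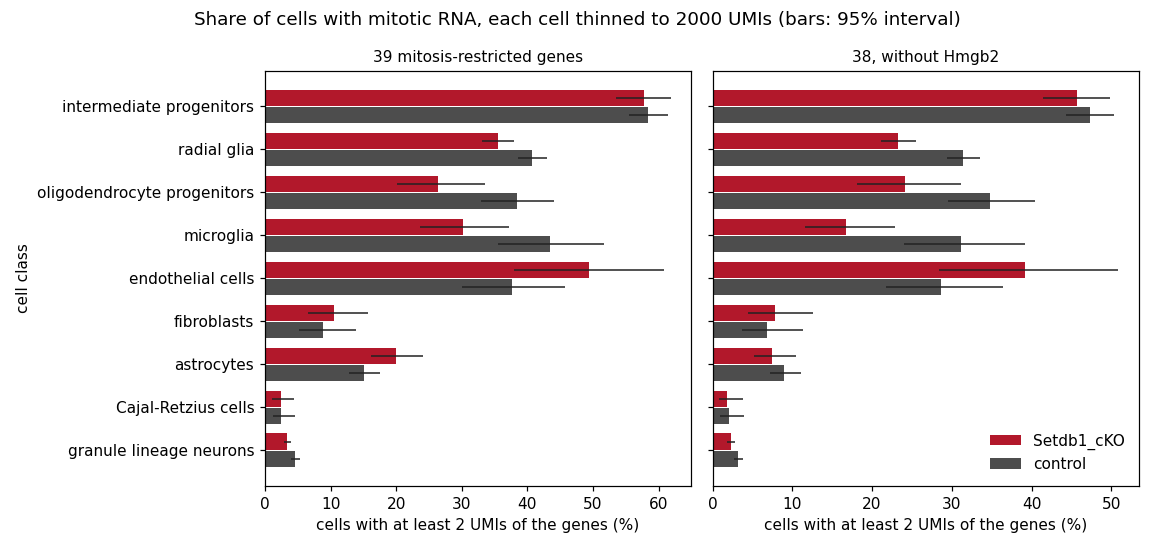
Share of cells with at least 2 UMIs of the mitosis-restricted genes after thinning to 2000 UMIs, with Hmgb2 (left) and without it (right), Setdb1_cKO above control; lines are exact 95% binomial intervals. Intermediate progenitors have the highest shares, and the low shares of Cajal-Retzius cells and granule lineage neurons follow from how the genes were chosen.

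In the cells counted as having mitotic RNA its mean amount was similar. These cells were chosen by the same UMIs, so their means cannot tell fewer cells from less RNA in each. In radial glia chosen by S phase genes instead, the ratio for the 38 genes was 0.877, as given below. Counted radial glia held a mean of 14.7 UMIs of the 38 genes in Setdb1_cKO and 15.5 in control, with a median of 11 in both, and counted intermediate progenitors held 16.5 and 16.7. Over all radial glia the means were 3.57 and 4.999 UMIs, and over all intermediate progenitors 7.67 and 8.06, the other side of 1 from the ratio of their summed UMIs for these genes, 1.02. Cells with 0 of these UMIs made up 60.7% of Setdb1_cKO and 53.9% of control radial glia, and cells with 20 or more 7.05% and 9.97%. The difference was spread over every bin from 2 UMIs up.

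**Figure D5:**
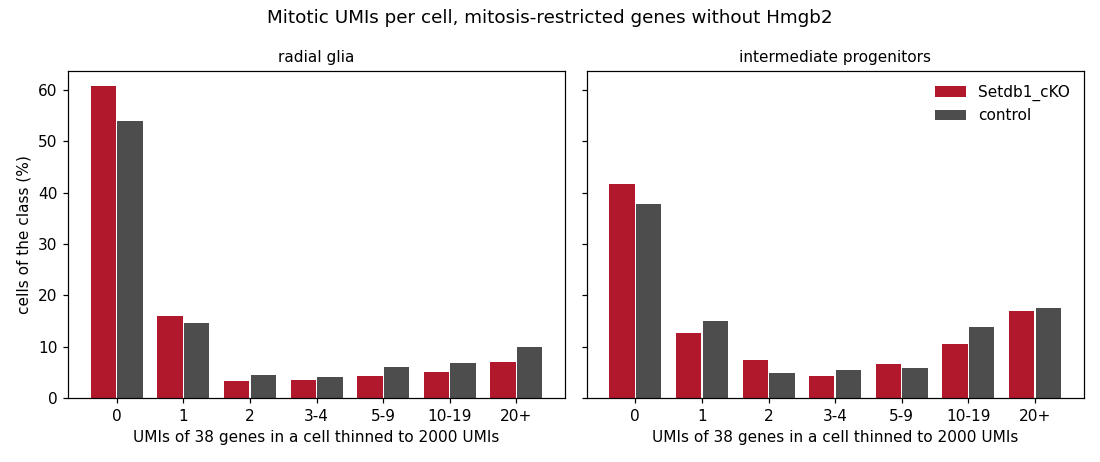
Share of radial glia and of intermediate progenitors by the number of UMIs of the 38 mitosis-restricted genes without Hmgb2, in cells thinned to 2000 UMIs, Setdb1_cKO left of control. In radial glia the bin of 0 UMIs holds 60.7% and 53.9% of cells.

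The mitosis-restricted genes were largely found in the same cells. In radial glia, cells with at least 5 UMIs of the other mitosis-restricted genes made up about 23.9% of Setdb1_cKO and 29.8% of control cells, and they held a median of 97.6% and 97.8% of the UMIs of a mitosis-restricted gene. For broad genes the medians were 71.6% and 74.2%. These cells were found from raw UMIs, so deeper cells passed more easily, but the contrast between both kinds of gene stood in each library. Both kinds were told apart by their level in neurons that do not divide, so the contrast follows in part from that choice.

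Cells were also chosen by S phase genes alone, which leaves the 52 genes free. Cells with at least 3 UMIs of the 42 S phase genes after thinning made up 34.8% of Setdb1_cKO and 44.7% of control radial glia. Within them the 52 genes summed to 10238 and 10877 CPM, a ratio of 0.941 (interval 0.931 to 0.952). This was nearer to 1 than the 0.808 of the whole class. The 38 mitosis-restricted genes other than Hmgb2 stayed further below 1 within them, at 0.877 (0.863 to 0.892), beside 0.727 in the whole class. In intermediate progenitors, cells chosen this way made up 58.4% and 61.6% of the class. Within them the ratio was 1.12 (1.11 to 1.14) for the 52 genes and 1.08 for the 38. Of the radial glia with mitotic RNA, 87.6% in Setdb1_cKO and 88.2% in control also had at least 2 UMIs of the S phase genes. The S phase list was not confined to dividing cells. Among Cajal-Retzius cells, 38.7% in Setdb1_cKO and 37.8% in control had at least 2 of its UMIs without being counted for mitotic RNA.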

How the data were processed

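Dissociated dentate gyrus cells at postnatal day 5 were profiled in 1 Setdb1_cKO and 1 control library. As deposited, each matrix gives raw UMI counts for every gene in every barcode, per the file headers. The submitters' processing notes name Cell Ranger 7.1.0, Seurat and mm10. How reads shared between near-identical gene copies (for example of Hmgb2 or Cks1b) were counted is not stated in the sources used here. The members and lists were chosen with earlier results of these data known.

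A kept cell had 1000 or more UMIs, 500 or more genes and no more than 10% mitochondrial UMIs. Scrublet in scanpy 1.11.5 (expected rate 8%) marked 654 of 11463 scored Setdb1_cKO and 719 of 13390 scored control barcodes (5.71% and 5.37%), which were removed. A cell joined the class with the highest mean marker score (each marker scaled to its 90th percentile, 132 markers, 16 classes) if it led by 0.05 and at least 3 markers were detected. Summed UMIs were scaled to the class total. Ratios were checked on simulated counts. A gene counted as measured in a class from 30 UMIs in the libraries combined. Every gene could be named. Full values were given for the 2 highest by UMIs per role and for those past 1.5-fold in radial glia or intermediate progenitors. Aspm, Cdk1, Ccnb1 and the examples in other classes were added after their values were seen. Alternatives were other cell filters, doublets kept, a stricter gate (lead 0.15), Leiden clusters without cell cycle genes, other totals, and other thinning depths and UMI thresholds. Some were chosen after seeing the data: division by the median ratio of all genes, equal weight for each cell, shares without Hmgb2, and sums and shares over radial glia and astrocytes together.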

Additional observations from a re-analysis of the deposited data

Results flagged for a closer look

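In fibroblasts the summed level of the 52 genes gave a Setdb1_cKO to control ratio of 1.53, the opposite direction to the 0.808 of radial glia. With each cell weighted equally the fibroblast ratio was 0.871, the same direction as the 0.816 of radial glia, and after thinning fibroblasts held a mean of 0.979 UMIs of the 38 mitosis-restricted genes other than Hmgb2 in Setdb1_cKO and 1.15 in control. The difference between the classes was not tested, since each genotype had 1 library. In intermediate progenitors the ratio of 1.07 was also on the other side of 1 from radial glia (1.01 with each cell weighted equally), and this difference was not tested either.

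Cells in no class were outside the comparisons above. Among them 25.8% of Setdb1_cKO and 34.6% of control cells had at least 2 UMIs of the mitosis-restricted genes after thinning. A count of 0 cells would allow at most 0.291% and 0.273%, so these shares show only that such cells were present. All 52 genes together gave a ratio of 0.625 in these cells.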

How the results depend on the processing

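No paired analysis was possible because each genotype had 1 library, and for the same reason no library could be left out. The summed ratio in radial glia (0.808) stayed below 1 under each alternative run. It was 0.947 with the stricter cell filter (at least 3000 UMIs and 1500 genes, at most 5% mitochondrial), 0.794 with doublets kept, 0.747 with the stricter gate, 0.746 with clusters, 0.820 without mitochondrial, ribosomal and haemoglobin UMIs, 0.771 without Hmgb2, 0.844 divided by the median ratio of all genes, 0.888 with astrocytes added and 0.816 with each cell weighted equally. In intermediate progenitors (1.07) these gave 1.16 with the stricter filter, 0.958 with the stricter gate, 1.005 with clusters, 1.03 without Hmgb2, 1.096 divided by the median ratio and 1.01 with each cell weighted equally. In oligodendrocyte progenitors (0.871) the stricter filter gave 0.750, the stricter gate 0.791 and equal weights 0.760, and in microglia (0.668) the stricter filter gave 0.743, doublets kept 0.797, the median ratio 0.701 and equal weights 0.715. In fibroblasts (1.53) equal weights gave 0.871, and in endothelial cells (0.941) 1.27.

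The ratio of shares in radial glia (0.870) was 1.09 without thinning, 0.996 with the stricter filter, 0.976 at 1 UMI, 0.797 at 5 UMIs, 0.742 without Hmgb2 and 0.984 with astrocytes added. The 4 genes past 1.5-fold lower in radial glia became 0 with the stricter filter, 20 with the stricter gate, 31 with clusters and 0 at 2-fold. The 2 lower in intermediate progenitors became 1 with a looser filter or doublets kept, 0 with the stricter filter or at 2-fold and 5 with the stricter gate, and with the stricter filter 2 genes were higher. The cause of these changes was not tested, and the share of all measured genes past the fold is not given for these alternatives. Ratios in the smaller classes rest on few dividing cells, and counting error there is wide for single genes.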

Other observations

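Granule lineage neurons held low levels of the mitosis-restricted genes, 196 CPM in Setdb1_cKO and 234 CPM in control. Shares of 3.40% and 4.56% of these cells had at least 2 UMIs after thinning. The 13 broad genes were at 688 and 720 CPM, and since both kinds were told apart partly by their level in this class, the contrast between them is a description of that choice. Ckap5, the microtubule polymerase, was at 119 and 96.3 CPM there (ratio 1.24, interval 1.17 to 1.30), as it was higher in intermediate progenitors and level in radial glia. Psrc1 was at 0.846 and 1.71 CPM (0.495, 0.291 to 0.832). Some markers of this class are shared with pyramidal and mossy neurons.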
